A study of Mus musculus with 6 samples.

Results

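The 9 genes described here encode proteases, a granule amine enzyme and receptors of mast cells, and were chosen by name as Cpa3, Cma1, Mcpt4, Tpsb2, Tpsab1, Fcer1a, Ms4a2, Hdc and Mrgprb2. Each name matched 1 of the 54532 gene rows of the deposited table, and all 9 passed the filter on low counts, as did 17318 genes in all. The 6 RNA-seq libraries came from whole ears of mice aged 3 months. The Ufl1 cKO group held 3 libraries of genotype Ufl1f/f KRT14Cre/+, in which both Ufl1 alleles are floxed and Cre is driven by the keratin 14 promoter, active in basal keratinocytes and their epithelial descendants. The control group held 3 libraries of genotype Ufl1f/+ or Ufl1f/f without Cre, so every library carried at least 1 floxed allele, and the presence of Cre and the loss of Ufl1 cannot be told apart. Mast cells are not of the keratin 14 lineage. Strain, sex and the number of animals per library are not stated in the labels, so p-values measure only the spread between these samples, which may be technical. Ufl1 encodes the ligase that attaches the small modifier UFM1 to proteins.

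Mast cells are tissue-resident immune cells of the dermis that mature under stem cell factor acting on the receptor Kit. Their granules hold proteases and histamine bound to heparin-like proteoglycan, and release follows crosslinking of IgE on the high-affinity IgE receptor or activation of the peptide receptor Mrgprb2. In mouse skin the resident cells are of the connective tissue type, known for the chymase Mcpt4, the elastase-like chymase Cma1 (mouse mast cell protease 5), carboxypeptidase A3 and the tryptase Tpsb2 (mouse mast cell protease 6). Mucosal mast cells are known instead for Mcpt1 and Mcpt2.

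Total counts per library ranged from 18212929 to 19050876 in the Ufl1 cKO and from 17256339 to 20776539 in the controls. Ufl1 itself lay between 34.9 and 38.8 CPM in the Ufl1 cKO and between 46.1 and 57.9 CPM in the controls, with no overlap (CPM is the count scaled to the TMM-adjusted library total; edgeR quasi-likelihood test, adjusted p = 0.778). Controls 1 and 2 stood apart from the other libraries in their dermal fibroblast and keratinocyte markers. The summed level of 8 dermal fibroblast markers was 20759 to 22077 CPM in the Ufl1 cKO, against 25986, 9841 and 15950 CPM in controls 1 to 3. The summed level of 7 keratinocyte markers was 9494 to 12823 CPM in the Ufl1 cKO, against 6716, 15682 and 9035 CPM in controls 1 to 3. Control 1 was thus highest for the fibroblast markers and lowest for the keratinocyte markers, and control 2 the reverse. Results that turn on either of these controls are therefore also given without it. The Ufl1 cKO libraries differed in other tissue. Skeletal muscle markers summed to 3284, 3988 and 1439 CPM in Ufl1 cKO 1 to 3, against 4979, 2103 and 1878 CPM in controls 1 to 3. Cartilage markers summed to 1461, 1507 and 866 CPM in Ufl1 cKO 1 to 3, against 1517, 777 and 1334 CPM in controls 1 to 3. The share of mitochondrial counts was 2.49% to 2.71% in the Ufl1 cKO, against 4.59%, 2.97% and 2.29% in controls 1 to 3, highest in control 1, and its part in the results was not tested.

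Promoters of 7 of the 9 genes were matched in the RefSeq sequences (build GRCm38.p6, 250 bases before to 50 bases after the start site, shown 5′ to 3′ on the gene's strand). The sequences printed are those of Cpa3 and of the IgE receptor subunit genes Ms4a2 and Fcer1a, which hold the GATA motif, and of Mcpt4, the most abundant of the 9 per length. Capitals mark exact matches to 3 motifs: AGATAA on both strands, which GATA factors recognise, CATGTG on both strands, which is the E-box form of the factor Mitf, and TATAAA on the gene's strand only, which is the core promoter TATA box. Cpa3 is at chr3:20242132-20242431, minus strand, Ms4a2 at chr19:11623670-11623969, minus strand, Fcer1a at chr1:173227180-173227479, minus strand, and Mcpt4 at chr14:56062261-56062560, minus strand.
Cpa3: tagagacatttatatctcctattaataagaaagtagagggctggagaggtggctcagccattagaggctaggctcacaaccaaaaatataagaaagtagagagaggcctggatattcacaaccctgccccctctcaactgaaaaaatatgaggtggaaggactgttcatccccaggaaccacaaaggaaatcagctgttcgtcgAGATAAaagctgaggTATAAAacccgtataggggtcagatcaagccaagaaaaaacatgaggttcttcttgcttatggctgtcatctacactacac
Ms4a2: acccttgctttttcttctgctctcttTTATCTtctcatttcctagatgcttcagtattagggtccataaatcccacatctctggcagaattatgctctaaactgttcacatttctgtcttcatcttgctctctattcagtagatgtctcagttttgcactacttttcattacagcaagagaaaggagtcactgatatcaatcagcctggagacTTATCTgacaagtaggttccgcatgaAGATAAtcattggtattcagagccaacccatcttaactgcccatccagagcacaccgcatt
Fcer1a: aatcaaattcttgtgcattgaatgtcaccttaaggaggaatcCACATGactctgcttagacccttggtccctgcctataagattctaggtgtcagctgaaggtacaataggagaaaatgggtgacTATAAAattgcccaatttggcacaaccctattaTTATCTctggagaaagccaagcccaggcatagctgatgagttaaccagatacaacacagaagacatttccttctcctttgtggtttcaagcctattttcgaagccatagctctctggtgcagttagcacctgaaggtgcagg
Mcpt4: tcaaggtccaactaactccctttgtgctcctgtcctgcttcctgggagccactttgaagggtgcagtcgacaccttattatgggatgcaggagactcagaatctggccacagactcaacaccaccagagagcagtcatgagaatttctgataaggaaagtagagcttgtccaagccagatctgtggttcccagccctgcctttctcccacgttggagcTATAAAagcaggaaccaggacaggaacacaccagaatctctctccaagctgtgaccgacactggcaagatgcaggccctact

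The GATA motif was present in 3 of the 7 promoters, those of Cpa3, Fcer1a and Ms4a2, and in 11.2% of all 32851 promoters of the same length. Ms4a2 held 3 matches, with their first letters at positions -224, -37 and -11 from the start site, and Cpa3 held 1 at position -46. The TATA motif was present in 3 of the 7 (Cpa3 at -31, Mcpt4 at -32 and Fcer1a at -125), and in 8.3% of all promoters. The Mitf motif was present in 1 of the 7, Fcer1a, and in 14.2% of all promoters. No matches overlapped (0 pairs). The windows of Cma1, Hdc and Mrgprb2 held none of these letters. A match describes the letters only.

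Per length, 4 of the 5 granule protease genes dominated the set. In deposited FPKM, which divide the count by gene length and library size, Mcpt4 averaged 171 ± 13.8 FPKM in the Ufl1 cKO and 132 ± 34.3 FPKM in the controls (SD, n = 3 each). Cma1 averaged 103 ± 7.49 FPKM in the Ufl1 cKO and 89.9 ± 25.1 FPKM in the controls, Cpa3 74.2 ± 7.75 and 63.9 ± 39.9 FPKM, and Tpsb2 46.4 ± 1.93 and 38.6 ± 2.33 FPKM in the same groups (SD, n = 3 each). By mean FPKM over the 6 libraries these 4 genes were at or above 93.1% to 98.3% of all genes tested. The 5 protease genes held 94.4% to 96.9% of the summed FPKM of the 9 genes in the Ufl1 cKO and 94.9% to 96.4% in the controls. The 5 genes below Mcpt4, Cma1, Cpa3 and Tpsb2 included the protease gene Tpsab1. Over all 6 libraries they averaged 5.15 FPKM (Fcer1a), 4.71 FPKM (Ms4a2), 3.98 FPKM (Mrgprb2), 1.97 FPKM (Hdc) and 1.09 FPKM (Tpsab1). The order of the group means was the same in the Ufl1 cKO and in the controls. Between neighbours in that order, only Tpsb2 and Fcer1a had ranges that did not overlap over the 6 libraries, 36.0 to 48.6 FPKM for Tpsb2 and 2.25 to 10.3 FPKM for Fcer1a. Mcpt4 was above Cma1, and Cma1 above Cpa3, in 6 of 6 libraries, while Fcer1a was above Ms4a2 in 3 of 6.

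**Figure D1:**
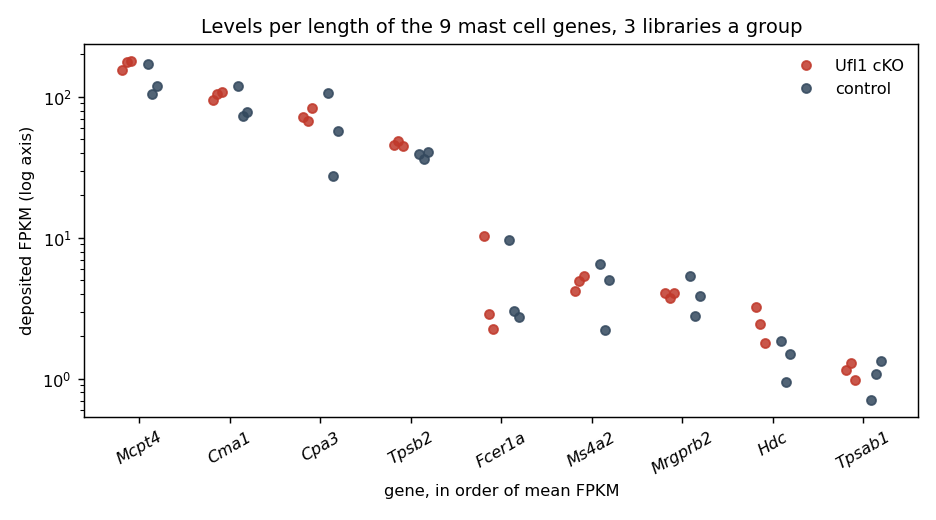
Deposited FPKM of the 9 genes in each library on a log axis, in order of the mean over 6 libraries, with Ufl1 cKO libraries as red points and control libraries as dark points. Mcpt4, Cma1, Cpa3 and Tpsb2 lie between 27.6 and 180.0 FPKM, and the other 5 genes between 0.709 and 10.3 FPKM.

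None of the 9 genes differed between Ufl1 cKO and control ears at an adjusted p under 0.05. Called means passing that threshold in the two-sided edgeR quasi-likelihood test with Benjamini-Hochberg adjustment over all genes tested. The test called 0 of the 9 as higher, where it called 0.0115% of all genes, and 0 as lower, where it called 0.00577%. DESeq2 also called 0 of the 9 (0.387% of all genes as higher and 0.139% as lower), as did limma-voom (0% of all genes in each direction). At an unadjusted p under 0.05 edgeR gave 1 of the 9 as higher (Hdc; 3.38% of all genes) and 0 as lower (1.95% of all genes). The Ufl1 cKO and control libraries did not overlap for 1 of the 9, Tpsb2, which was higher; 5.73% of all genes were higher without overlap and 4.81% lower. The log2 fold change was above 0 for 8 of the 9, against 47.8% of all genes, and below 0 for 1, Mrgprb2, against 52.2% of all genes, with a median of 0.19, against -0.01 for all genes tested. That median was 0.43 without control 1 and 0.07 without control 2. In whole skin, the number of mast cells and the amount of RNA per cell cannot be told apart.

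**Figure D2:**
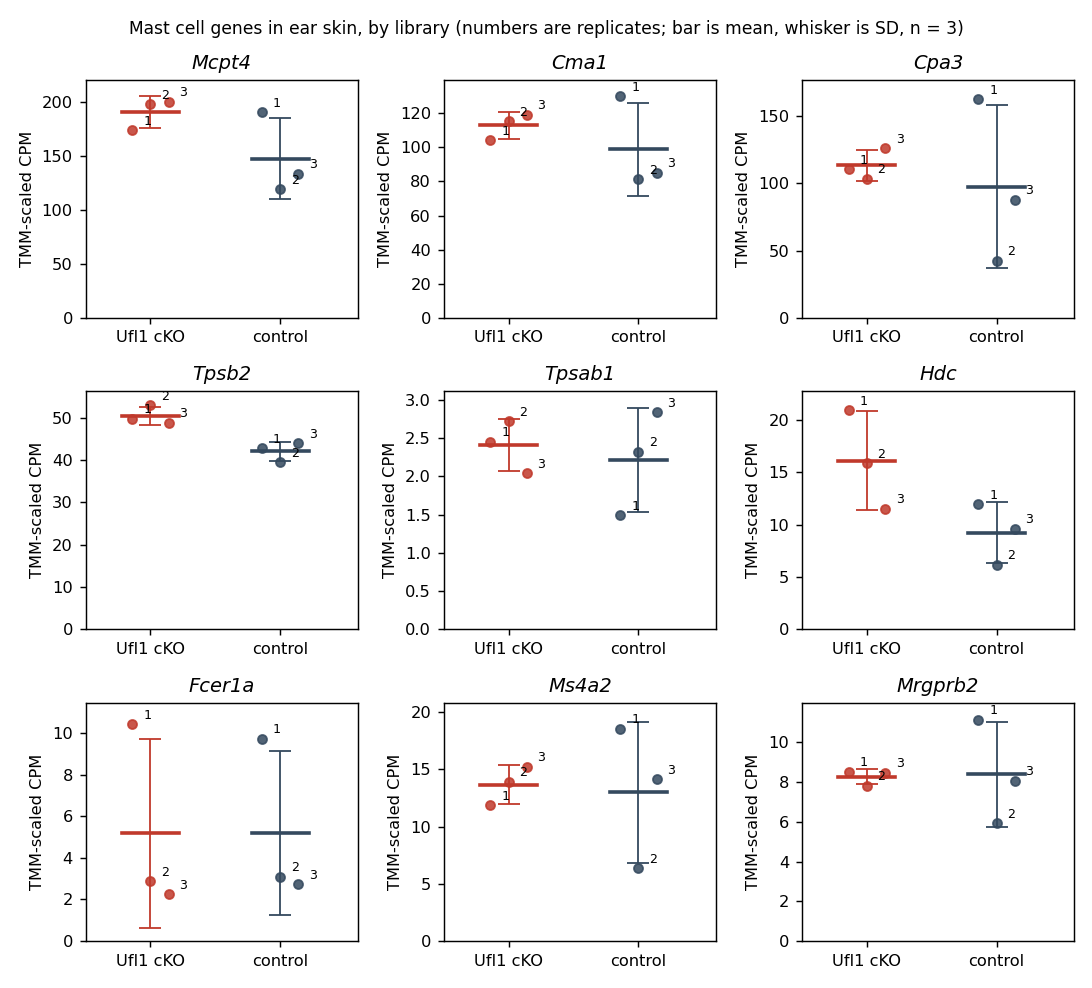
TMM-scaled CPM of each gene by library, Ufl1 cKO in red at the left and control in dark at the right of each panel; numbers are replicates, the bar is the mean and the whisker the SD (n = 3). The groups are apart for Tpsb2, at 48.8 to 52.9 CPM in the Ufl1 cKO and 39.5 to 43.9 CPM in the controls, and overlap in the other 8 panels.

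The chymase genes lie on chromosome 14. Mcpt4 (ENSMUSG00000061068, mm10, chromosome 14, 56059629 to 56062313, minus strand) encodes mouse mast cell protease 4, the main chymotrypsin-like activity of connective tissue mast cells. It was at 173, 197 and 199.9 CPM in Ufl1 cKO 1 to 3, against 189.9, 119 and 133 CPM in controls 1 to 3. Control 1 lay within the range of the Ufl1 cKO and the other controls lay below it. This gave a log2 fold change of 0.37 (SE 0.19). The edgeR adjusted p was 0.97, beside an exact permutation p of 0.2, two-sided, where 0.1 is the smallest that 3 libraries against 3 allow. Without control 1 the log2 fold change was 0.59 and without control 2 it was 0.24.

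Cma1 (ENSMUSG00000022225, chromosome 14, 55941451 to 55944675, minus strand) was at 104, 115 and 119 CPM in Ufl1 cKO 1 to 3, against 130.1, 81.2 and 85.2 CPM in controls 1 to 3. Control 1 was above and controls 2 and 3 were below every Ufl1 cKO library. Its log2 fold change was 0.19 (SE 0.19; edgeR adjusted p = 0.997), at 0.43 without control 1 and 0.07 without control 2. Of 50-base windows of the Cma1 transcript, 5.38% also occurred in Gm48934, and 5.48% of those of Mcpt4 occurred in Cma2. A small share of reads could have come from these relatives, which was not tested. Cma2 itself had 4, 5 and 12 counts in Ufl1 cKO 1 to 3 and 12, 9 and 7 in controls 1 to 3.

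Cpa3 (ENSMUSG00000001865, chromosome 3, 20215620 to 20242181, minus strand) encodes carboxypeptidase A3, the exopeptidase of mast cell granules. It was at 111, 104 and 126 CPM in Ufl1 cKO 1 to 3, against 162, 42.5 and 87.7 CPM in controls 1 to 3. The controls spanned a wider range than the Ufl1 cKO, with SDs of 11.5 CPM in the Ufl1 cKO and 60.5 CPM in the controls (n = 3 each). The log2 fold change was 0.22 (SE 0.40; edgeR adjusted p = 0.997), and it was -0.14 without control 2 and 0.79 without control 1.

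The tryptase genes lie on chromosome 17. Tpsb2 (ENSMUSG00000033825, chromosome 17, 25366550 to 25368094, plus strand), the main tryptase gene here, was at 49.8, 52.9 and 48.8 CPM in Ufl1 cKO 1 to 3, against 42.8, 39.5 and 43.9 CPM in controls 1 to 3. Every Ufl1 cKO library was above every control, and the spread within each group was the smallest of the 9 genes relative to the mean, 4.23% in the Ufl1 cKO and 5.42% in the controls. The log2 fold change was 0.26 (SE 0.12), a 1.20-fold higher level, and edgeR gave p = 0.0558 before and 0.937 after adjustment, beside an exact permutation p of 0.1, the smallest possible. It was between 0.22 and 0.30 when each library was left out in turn. Tpsab1 (ENSMUSG00000024173, chromosome 17, 25343245 to 25345562, minus strand), which encodes mouse mast cell protease 7, was much lower, with 44, 49 and 39 counts in Ufl1 cKO 1 to 3 and 25, 45 and 60 counts in controls 1 to 3. Its groups overlapped, with a log2 fold change of 0.11 (SE 0.33), -0.11 without control 1. No 50-base window of either tryptase transcript occurred in another gene's transcript (0%). For Tpsb2 the GENCODE vM21 span used for the windows differed from the deposited one. It held 1594 exon bases against a deposited length of 1081 bases, on which the Tpsb2 FPKM rests.

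Hdc had the largest fold change of the 9. Hdc (ENSMUSG00000027360, chromosome 2, 126593667 to 126619299, minus strand) encodes histidine decarboxylase, the enzyme that makes histamine, and is also transcribed in other myeloid cells. It was at 20.9, 15.9 and 11.5 CPM in Ufl1 cKO 1 to 3, against 11.9, 6.19 and 9.59 CPM in controls 1 to 3. The lowest Ufl1 cKO library was just below the highest control, so the groups overlapped. The log2 fold change was 0.80 (SE 0.30), a 1.74-fold higher level, and edgeR gave p = 0.0299 before and 0.860 after adjustment, beside an exact permutation p of 0.2. It stayed positive in the 19 alternative fits, from 0.52 to 1.02, and was 0.57 without Ufl1 cKO 1. Neutrophil markers were also highest in Ufl1 cKO 1: the 6 listed genes summed to 416, 43.4 and 68.8 CPM in Ufl1 cKO 1 to 3, against 78.6, 6.60 and 14.8 CPM in controls 1 to 3, and 4 of 4 tested had positive log2 fold changes. Ly6g, a defining neutrophil marker, had 0 counts in each Ufl1 cKO library and 0, 1 and 2 counts in controls 1 to 3. The part of neutrophils in the Hdc value was not tested. In the authors' deposited table Hdc had a log2 fold change of 0.80 with an adjusted p of 0.597, and the other 8 genes had an adjusted p of 0.9999.

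The subunits of the IgE receptor did not vary together. Fcer1a (ENSMUSG00000005339, chromosome 1, 173221284 to 173227214, minus strand) encodes the alpha chain, which binds IgE. It was at 10.4, 2.89 and 2.25 CPM in Ufl1 cKO 1 to 3, against 9.72, 3.09 and 2.74 CPM in controls 1 to 3. Replicate 1 of each group was well above the other libraries of its group, and the group means were 5.19 ± 4.54 CPM in the Ufl1 cKO and 5.19 ± 3.93 CPM in the controls (SD, n = 3 each). The log2 fold change of 0.01 (SE 0.69) was -1.004 without Ufl1 cKO 1 and 0.82 without control 1. Ms4a2 (ENSMUSG00000024680, chromosome 19, 11615523 to 11623719, minus strand) encodes the beta chain, which amplifies the receptor's signal. It was at 11.9, 13.9 and 15.2 CPM in Ufl1 cKO 1 to 3, against 18.6, 6.34 and 14.1 CPM in controls 1 to 3, so that the Ufl1 cKO lay inside the range of the controls. Its log2 fold change was 0.07 (SE 0.35), and -0.25 without control 2. The ratio of Fcer1a to Ms4a2 in FPKM was 2.47, 0.584 and 0.416 in Ufl1 cKO 1 to 3, against 1.48, 1.37 and 0.547 in controls 1 to 3. Fcer1g, the shared gamma chain, was at 58.8 ± 15.1 CPM in the Ufl1 cKO and 43.1 ± 16.99 CPM in the controls (SD, n = 3 each), and its log2 fold change was 0.45 (SE 0.29; edgeR adjusted p = 0.981). Other myeloid cells transcribe it too.

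Mrgprb2 (ENSMUSG00000050425, chromosome 7, 48550965 to 48558086, minus strand) encodes the receptor for basic secretagogues and neuropeptides that is known as a marker of connective tissue mast cells. It was at 8.53, 7.83 and 8.48 CPM in Ufl1 cKO 1 to 3, against 11.2, 5.93 and 8.08 CPM in controls 1 to 3. The Ufl1 cKO libraries were close together and inside the control range, with a log2 fold change of -0.02 (SE 0.26), -0.21 without control 2 and 0.24 without control 1. A p that misses the threshold does not show equal levels. The 95% intervals of the fold change in limma-voom were 0.684 to 1.55 for Mrgprb2, 0.991 to 1.45 for Tpsb2, 0.856 to 1.59 for Cma1, 0.965 to 1.78 for Mcpt4 and 1.07 to 2.88 for Hdc. They were 0.650 to 1.85 for Tpsab1, 0.648 to 2.08 for Ms4a2, 0.685 to 2.60 for Cpa3 and 0.332 to 2.77 for Fcer1a.

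**Figure D3:**
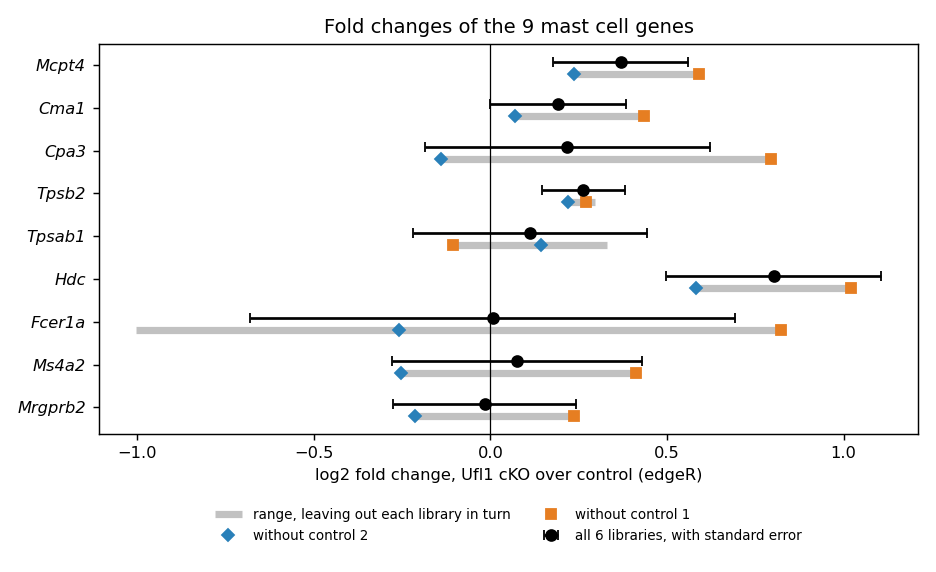
Log2 fold change of Ufl1 cKO over control for each gene: black points with the standard error use all 6 libraries, grey bars span the values when each library is left out, and diamonds and squares mark the values without control 2 and without control 1. Hdc, Mcpt4, Tpsb2 and Cma1 stay above 0 throughout, and the bars of Cpa3, Tpsab1, Fcer1a, Ms4a2 and Mrgprb2 cross 0.

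The 9 genes summed to 492, 512 and 533 CPM in Ufl1 cKO 1 to 3, against 578, 306 and 387 CPM in controls 1 to 3. The means were 513 ± 20.8 CPM in the Ufl1 cKO and 424 ± 139.7 CPM in the controls (SD, n = 3 each), so the spread among the controls exceeded the difference between the groups. The ratio of the means was 1.21, 1.48 without control 1 and 1.06 without control 2. Control 2 held the lowest value for 7 of the 9 genes and control 1 the highest for 4. Set against the summed dermal fibroblast markers, which was decided after seeing the data, the 9 genes were at 22.4, 23.2 and 25.7 CPM per 1000 CPM of fibroblast markers in Ufl1 cKO 1 to 3, against 22.2, 31.1 and 24.3 in controls 1 to 3. On that scale the Ufl1 cKO lay inside the control range, with a ratio of means of 0.919. Without control 2 that ratio was 1.02, so its direction rests on that library.

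**Figure D4:**
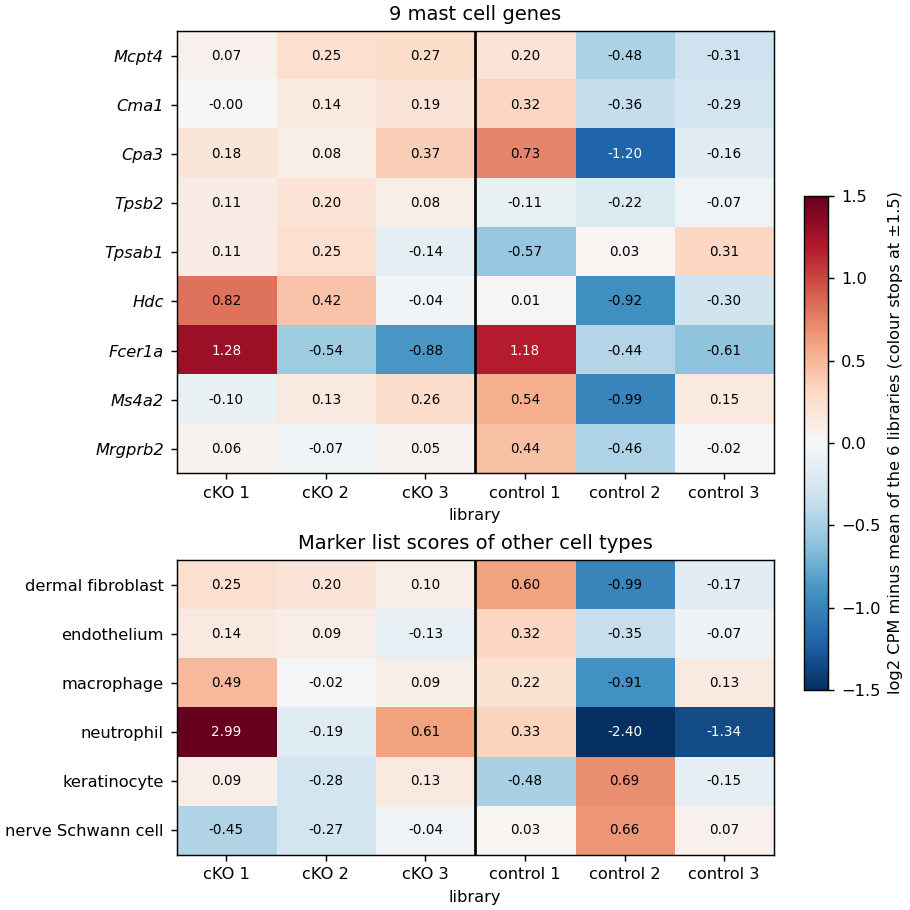
Log2 CPM minus the mean of the 6 libraries for the 9 genes (upper panel) and mean of the same quantity over marker lists of other cell types (lower panel), with the Ufl1 cKO libraries left of the line and the control libraries right of it. Control 2 is at -0.99 for the fibroblast list and -1.20 for Cpa3, and Fcer1a stands at 1.28 in Ufl1 cKO 1 and 1.18 in control 1.

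As a description over the 6 libraries, which share tissue composition, the log2 CPM of the 36 pairs of genes had a median Pearson r of 0.52. The highest were Cma1 with Mcpt4 (r = 0.95), Cpa3 with Ms4a2 (r = 0.95) and Cpa3 with Mrgprb2 (r = 0.95). Without the 2 libraries farthest from the median of the first gene, an alternative chosen after seeing the data, these were 0.62, 0.13 and 0.62. Leaving out the extremes of a gene narrows its range and leaves 4 libraries. The lower values therefore cannot show what each relation rests on. Tpsab1 had negative r with 6 of the 8 other genes, down to -0.63 with Cma1. For the scores below, brackets give r without the 2 libraries farthest from the median of that score, so the libraries left out can differ between scores. The mean of the 9 genes had an r of 0.98 with the dermal fibroblast score (0.93) and 0.93 with the endothelial score (0.80). It was 0.91 with the macrophage score (0.36) and -0.78 with the keratinocyte score (0.33). Outside these lists it was 0.89 with the cartilage score (0.90), 0.83 with the neutrophil score (0.68) and -0.86 with the Schwann cell score (-0.155). Lower values were 0.57 for skeletal muscle (0.74), 0.51 for adipocytes (0.87) and 0.49 for melanocytes (0.15). They were -0.11 for dendritic and Langerhans cells (-0.92) and -0.16 for T cells (-0.435). The part of dermal or other tissue content in the levels of the 9 genes was not tested. Among 15878 other genes with a mean of at least 1 CPM, those most like the mean of the 9 were Serpinb1a (r = 0.9987), Dnajc13, Cd209d, Sec23a, Anxa4, Flrt2, Cltc and Prkg2 (r = 0.9918), and 542 genes had an r above 0.9.

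The type of mast cell was checked against markers. Mcpt1 and Mcpt2, of mucosal mast cells, had 0 to 1 counts per Ufl1 cKO library and 0 to 2 per control library, near the floor of 3 counts (0.142 to 0.179 CPM). Mcpt9 had 0 counts in all libraries. Of the basophil proteases, Prss34 had 0 counts in each Ufl1 cKO library and 1, 0 and 2 in controls 1 to 3, and Mcpt8 had 13, 2 and 11 counts in Ufl1 cKO 1 to 3 and 1, 0 and 0 in controls 1 to 3. Of 4 listed eosinophil markers, 0 passed the filter. Epx had 0 counts throughout, and Prg2 had 2 counts in Ufl1 cKO 1 and 0 in the other libraries. Siglecf had 17, 1 and 7 counts in Ufl1 cKO 1 to 3 and 4, 1 and 8 in controls 1 to 3. Ccr3 had 8, 2 and 2 counts in Ufl1 cKO 1 to 3 and 3, 1 and 8 in controls 1 to 3. Of the other listed mast cell proteases 3 of 8 passed the filter and 0 were called. Ctsg, the granule protease cathepsin G, was at 2.59 ± 0.220 CPM in the Ufl1 cKO and 3.46 ± 0.901 CPM in the controls (SD, n = 3 each). Every Ufl1 cKO library was below every control, as for 4.81% of all genes. The nearest values were 2.72 CPM in Ufl1 cKO 3 and 2.84 CPM in control 2. Its log2 fold change was -0.41 (SE 0.29) with an edgeR adjusted p of 0.995, and -0.18 without control 3. Tpsg1, a membrane tryptase, was at 0.30 (SE 0.29) in log2 fold change, while Gzmb, granzyme B, which cytotoxic lymphocytes also use, had 14, 4 and 65 counts in Ufl1 cKO 1 to 3 and 13, 10 and 0 in controls 1 to 3. For Gzmb the log2 fold change of 1.81 (SE 1.13) was 0.25 without Ufl1 cKO 3, 2.52 without control 1 and 1.19 without control 3.

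Of 13 other listed mast cell identity genes, 12 were tested and 10 were above 0 in log2 fold change (47.8% of all genes), with a median of 0.26. Of these genes 0 were called or had an unadjusted p under 0.05. Of all genes, 0.0115% were called higher and 0.00577% lower, and 3.38% were higher and 1.95% lower at an unadjusted edgeR p under 0.05. Kit, the stem cell factor receptor, which melanocytes also carry, was at 43.9 to 56.7 CPM in the Ufl1 cKO, against 45.8, 20.0 and 51.5 CPM in controls 1 to 3 (log2 fold change 0.39, SE 0.32). The 7 melanocyte markers, Kit among them, summed to 229, 257 and 329.6 CPM in Ufl1 cKO 1 to 3, against 118, 83.7 and 132 CPM in controls 1 to 3, with 7 of 7 positive, and their part in the Kit value was not tested. Cyp11a1, a steroid-synthesis enzyme present in mast cells, was at 15.2 ± 2.05 CPM in the Ufl1 cKO and 11.2 ± 1.71 CPM in the controls (SD, n = 3 each; log2 fold change 0.45, SE 0.20, edgeR adjusted p = 0.935). Tph1, the serotonin-synthesis enzyme, was at 0.56 (SE 0.37) and Rab27b, a granule trafficking GTPase, at 0.22 (SE 0.17). Slc18a2, the vesicular transporter that loads histamine into granules, was at 0.06 (SE 0.23).

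Genes of signalling below the IgE receptor had the highest median of the lists. Of 15 tested, 13 were above 0 in log2 fold change (47.8% of all genes), with a median of 0.45, and 0 were called. At an unadjusted p under 0.05, 4 were higher (3.38% of all genes), and 4 were higher without overlap (5.73% of all genes). Syk, the kinase recruited to the receptor, was at 26.5 ± 5.61 CPM in the Ufl1 cKO and 17.1 ± 1.64 CPM in the controls (SD, n = 3 each). Its log2 fold change was 0.64 (SE 0.19; edgeR adjusted p = 0.786). The exchange factor Vav1 was at 0.87 (SE 0.30), the adaptor Lat2 at 0.70 (SE 0.26) and the adaptor Lcp2 at 0.99 (SE 0.39). These genes act in most leukocytes. Macrophage markers summed to 1308 to 1675 CPM in the Ufl1 cKO and to 759 to 1704 CPM in the controls, with 6 of 7 positive, and the part of other leukocytes in these values was not tested.

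In the list of granule proteoglycan and secretion genes, 14 of 14 were tested and 11 were positive (47.8% of all genes), with a median of 0.08. Of the 14, 0 were called or had an unadjusted p under 0.05. Srgn, the serglycin core protein, was at 62.5 ± 18.2 CPM in the Ufl1 cKO and 40.2 ± 30.2 CPM in the controls (SD, n = 3 each; log2 fold change 0.64, SE 0.48). Its log2 fold change was 1.44 without control 1 and 0.29 without control 2. The membrane fusion genes Unc13d and Vamp7 were at 0.47 (SE 0.26) and 0.35 (SE 0.21), and the granule GTPase gene Rab27a at -0.28 (SE 0.18). Of 7 eicosanoid synthesis genes, 3 were positive (47.8% of all genes), with a median of -0.07. Of the 7, 0 were called and 2 were higher at an unadjusted p under 0.05 (3.38% of all genes). These were Ptgs2, the inducible cyclooxygenase, with 382, 76 and 98 counts in Ufl1 cKO 1 to 3 and 56, 64 and 32 counts in controls 1 to 3, and Alox5ap, the activating protein of leukotriene synthesis, at 0.56 (SE 0.18). For Ptgs2 the log2 fold change of 1.91 (SE 0.65) was 0.79 without Ufl1 cKO 1. Ptgs1 was at 0.23 (SE 0.16) and Alox5, the lipoxygenase itself, at -0.14 (SE 0.17).

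Histamine handling and receptor genes were tested for 6 of 8, with 4 positive (47.8% of all genes) and a median of 0.11. Of the 6, 0 were called and 2 were higher at an unadjusted p under 0.05 (3.38% of all genes). The receptor gene Hrh2 had 62, 36 and 69 counts in Ufl1 cKO 1 to 3, against 34, 14 and 28 counts in controls 1 to 3, a log2 fold change of 1.16 (SE 0.44; edgeR adjusted p = 0.860). Hrh4 had 10, 10 and 21 counts in Ufl1 cKO 1 to 3, against 8, 2 and 3 counts in controls 1 to 3. Controls 2 and 3 were thus at or below the floor of 3 counts. The log2 fold change of Hrh4 was 1.64 (SE 0.65, edgeR adjusted p = 0.894). It was 2.52 without control 1, the highest control, so its size is uncertain. Hrh1 was at 0.17 (SE 0.36) and the transporter gene Slc22a3 at -0.31 (SE 0.42).

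Growth factors and attractants of mast cells were tested for 9 of 12, with 8 positive (47.8% of all genes), a median of 0.22, 0 called and 2 higher at an unadjusted p under 0.05 (3.38% of all genes). Kitl, stem cell factor itself, was at 63.4 ± 5.39 CPM in the Ufl1 cKO and 62.1 ± 22.8 CPM in the controls (SD, n = 3 each; log2 fold change 0.03, SE 0.24). The chemokine gene Ccl2 had 138, 87 and 383 counts in Ufl1 cKO 1 to 3 and 88, 40 and 73 counts in controls 1 to 3, and Ccl5 had 50, 13 and 355 and 23, 13 and 18 counts in the same libraries. Ufl1 cKO 3 held the highest value of both, and without it the log2 fold change was 0.81 for Ccl2 (1.603 with it) and 0.87 for Ccl5 (2.94 with it). T cell markers summed to 27.9, 26.9 and 62.9 CPM in Ufl1 cKO 1 to 3, against 36.8 to 41.6 CPM in the controls, with 4 of 6 tested positive. Dendritic and Langerhans cell markers summed to 1224, 1302 and 2767 CPM in Ufl1 cKO 1 to 3, against 1075 to 1345 CPM in the controls, with 5 of 6 positive. Both were highest in Ufl1 cKO 3, as was Gzmb, and their part in these values was not tested. Il33, an alarmin that activates mast cells, was at 0.61 (SE 0.40) in log2 fold change, and at -0.02 without Ufl1 cKO 1. The mast cell growth factor genes Il3 and Il9 had 0 counts in all libraries.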

How the data were processed

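Whole ear skin of 3 Ufl1 cKO and 3 control samples was profiled by RNA-seq from TRIzol-extracted total RNA with the NEBNext Ultra kit (3 µg per sample), per the labels' protocols. The submitters' processing notes name HISAT2, HTSeq and the build mm10; versions, annotation and the strand setting are not given in the sources used here. Raw counts (whole numbers, not normalized) and FPKM were deposited for each gene, per the file headers; each FPKM equals the count over gene length and an effective library size of 97.6% to 104.4% of the total. The deposited table also holds the authors' normalized mean counts (signal, not used in the tests), log2 fold changes, p-values and adjusted p-values, per the file headers, from a test not named there.

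Counts of 17318 genes passing filterByExpr were scaled by TMM and compared with edgeR 4.0.16 (R 4.3.3; quasi-likelihood, robust, no covariates). DESeq2 1.42.0 and limma 3.58.1 were alternatives. SE is the log2 fold change over the root of F. List scores are mean log2 CPM (prior count 2) minus each gene's mean. The fits were tested on simulated data with 200 changed genes. The members and lists were chosen with earlier results of these data known. Genes named are all 9 members, up to 4 per list with the smallest p, Kit, Kitl, Fcer1g, Slc18a2 and Ctsg, and the 8 most like the members' mean; other list genes named by count were chosen after their values were seen. Intervals cover the spread between samples, and floors cover counting error only. All per-sample columns were used. Transcript windows and exon overlaps were read from GENCODE vM21 (GRCm38), promoters from RefSeq.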

Additional observations from a re-analysis of the deposited data

How the results depend on the processing

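The count of 0 called members held in all 19 alternatives, and their median log2 fold change of 0.19 was 0.16 to 0.32 under other scalings, filters and tools, and 0.07 (without control 2) to 0.43 (without control 1) when each library was left out, where the SD between replicates is 0.32. The count of all genes called was 3, and it was 25 with no filter beyond 1 count, 91 in DESeq2, 26 in limma-voom with quality weights, 12 with the replicate number as a block, 0 in limma-voom and on FPKM, and 0 to 4 when each library was left out. At an unadjusted p under 0.05, 923 genes and 1 of the 9 members passed as reported, 891 genes in limma-voom, 813 to 1300 on FPKM, 2745 genes and 4 members with quality weights, 1876 genes and 4 members without control 1, and 502 genes and 0 members without Ufl1 cKO 1. The deviations of same-numbered libraries had an r of 0.22 for number 1 and -0.04 for numbers 2 and 3. Between unlike numbers r went from -0.161 (Ufl1 cKO 1 with control 3) to 0.185 (Ufl1 cKO 2 with control 3). With 3 libraries a group, these values cannot settle whether the numbers pair the samples. The replicate block called 0 of the 9 members.

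Of 735 values of 39 named genes under the alternatives, 35 changed sign and the cause was not tested. Fcer1a was at -0.041 with upper-quartile scaling, -0.0003 with total counts, -0.0039 in DESeq2, -0.061 in limma-voom, -0.060 on log2(FPKM + 1), -0.0845 with the replicate block, -0.087 on log2(FPKM + 0.1) with or without a filter, and -1.004 to 0.82 when each library was left out. Mrgprb2 was at 0.041 (limma-voom), 0.044 (its quality weights), 0.017 on log2(FPKM + 1), 0.029 on log2(FPKM + 0.1) and 0.025 with the block, and -0.21 to 0.24 over libraries left out. With quality weights Tpsab1 was at -0.12, Ms4a2 at -0.036 and Hrh1 at -0.25, and Kitl was at -0.0023 with upper-quartile scaling. Leaving out each library gave -0.14 to 0.79 for Cpa3, -0.11 to 0.33 for Tpsab1, -0.25 to 0.41 for Ms4a2, -0.065 to 0.24 for Slc18a2, -0.66 to 0.041 for Slc22a3, -0.10 to 0.52 for Hrh1, -0.16 to 0.36 for Kitl and -0.022 to 0.91 for Il33. Tpsab1, at 25 to 60 counts per library, has the least depth of the 9.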

Other observations

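The FPKM ratio of Cma1 to Mcpt4 was 0.611, 0.593 and 0.606 in Ufl1 cKO 1 to 3, against 0.696, 0.696 and 0.651 in controls 1 to 3, so that every Ufl1 cKO library was below every control. The means were 0.603 ± 0.0092 in the Ufl1 cKO and 0.681 ± 0.0262 in the controls (SD, n = 3 each), with an exact permutation p of 0.1, the smallest possible. It was 1 of 7 ratios among the 9 genes that were computed, and 1 of these 7 was without overlap. Any ratio without overlap has that permutation p of 0.1, so 1 of 7 does not set this ratio apart. Of all single genes, 5.73% were higher and 4.81% lower without overlap, and no such share was computed for ratios. No threshold was passed.

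The basophil protease gene Mcpt8 did not pass the filter on low counts and was not tested. Its 13, 2 and 11 counts in Ufl1 cKO 1 to 3, against 1, 0 and 0 counts in controls 1 to 3, were above the floor of 3 counts in Ufl1 cKO 1 and 3 only.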
